A study of Mus musculus with 4 samples.

Results

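The 10 genes described here encode the enzymes, receptors and transporter through which T cells make, sense and remove extracellular ATP and adenosine: Entpd1, Nt5e, Adora2a, Adora2b, Ada, Adk, P2rx4, P2rx7, Slc29a1 and Dpp4. They were chosen by symbol, and all 10 were found among the 50600 genes of the count files. The cells were primary mouse T-helper 17 (Th17) cells, CD4 T cells that make interleukin-17, of strain C57BL/6NJ, and the labels link them to a protocol for differentiating CD4 T cells. RNA-seq was run on a single group, with biological replicates 1 to 4 and no second condition, so the comparisons are between genes within a library and between libraries. The labels give age and developmental stage as unknown and sex as not collected, and name a single donor for all 4 libraries without saying whether the cultures came from separate animals. The headers of the count files carry a 16 hr tag that the labels do not explain. The p-values below therefore speak only for these libraries, and the spread between the libraries may in part be technical.

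ATP that leaves a cell acts on P2X channels and on P2Y receptors of the same or a neighbouring cell. On the cell surface CD39, the product of Entpd1, cuts ATP and ADP to AMP, and CD73, the product of Nt5e, cuts AMP to adenosine. Adenosine acts on T cells mainly through the receptor encoded by Adora2a, which raises cyclic AMP and dampens T-cell receptor signals. It is then carried into the cell by equilibrative transporters such as the one encoded by Slc29a1, and is either phosphorylated back to AMP by adenosine kinase (Adk) or deaminated to inosine by adenosine deaminase (Ada). CD26, the peptidase encoded by Dpp4, holds adenosine deaminase on the surface of human T cells.

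The libraries held 37025016, 24696730, 32766291 and 36798195 fragments in replicates 1 to 4. Levels are given in TPM, the fragments of a gene over its exon length, scaled to a sum of 1000000 in each library, as mean ± SD over the 4 libraries (n = 4 throughout). The chi-square per degree of freedom was computed on the gene counts of each pair of libraries, leaving out genes with under 10 fragments. It came to 3.41 between replicates 1 and 2, 3.66 between 3 and 4, and 6.39 to 7.95 in the 4 other pairs. None agreed within sampling noise. Each library was counted as 1 sample, although replicates 1 and 2, and likewise 3 and 4, may not be independent. The SDs and tests below do not take this grouping into account. Replicates 1 and 2 also stood apart from 3 and 4 in genes of the sex chromosomes. Xist, from which the X chromosome is silenced in female cells, was at 186, 161, 0.687 and 0.721 TPM in replicates 1 to 4, and the Y-linked Ddx3y at 0.442, 0.446, 88.6 and 83.2 TPM. The libraries therefore did not all come from cells of 1 sex, although the labels name a single donor. All 10 purine signalling genes are autosomal, which does not keep their levels from differing with sex or source. P2rx4 and Entpd1 were higher in both replicates 1 and 2 than in 3 and 4. Ada, Adk and Nt5e were lower there, and the other genes overlapped. For Entpd1 the margin was narrow, with replicate 1 at 1.42 TPM against 1.39 TPM in replicate 3. So few libraries can give such a split by order alone. The share of all genes that split this way was not computed, and a relation to sex or source was not tested. Values of every library are given below. Of 9 T-cell and Th17 markers, 9 reached 1 TPM in every library, from the T-cell receptor gene Trac at 1289 ± 61.9 TPM to the cytokine receptor gene Il23r at 2.14 ± 0.154 TPM. The interleukin-17 genes Il17f and Il17a were at 694 ± 73.6 and 20.0 ± 1.02 TPM, and Il17f was the 1 gene of this list called variable between the libraries by the edgeR test described below. Of 39 markers of B, myeloid, granulocyte, CD8 and natural killer, stromal and blood cells, 4 reached 1 TPM in every library (Cd68, Kit, Cd8b1 and Pecam1), none reached 10 TPM, and 16 had no fragment. As the samples are bulk RNA, fewer cells that express a gene and less RNA per cell cannot be told apart.

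The 10 genes spanned a 603-fold range of mRNA level, led by the genes of the transporter and the kinase that take up and use adenosine. Slc29a1 and Adk exceeded 100 TPM in every library, Ada and Adora2a lay between 10 and 30 TPM, Nt5e and P2rx4 lay between 6 and 11 TPM, and Dpp4, Entpd1, Adora2b and P2rx7 lay under 3 TPM. At the threshold of 1 TPM in every library 8 of the 10 genes were detected, against 44.8% of the 21764 protein-coding genes, and the other two were Adora2b and P2rx7. The median of the 10 mean levels was 7.92 TPM, against 0.275 TPM over all protein-coding genes and 31.2 TPM over the 9761 of them that were detected. With the longest annotated transcript as gene length the median of the 10 was 12.6 TPM. Of the 9 neighbouring pairs in the order, which was set from these same values, 8 did not overlap in their ranges over the libraries. Margins were narrow for Entpd1 over Adora2b (lowest 1.38 against highest 1.35 TPM) and for Adora2b over P2rx7 (0.666 against 0.617 TPM). Dpp4 and Entpd1 did overlap, and Dpp4 was the higher of the pair in 2 of 4 libraries.

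**Figure D1:**
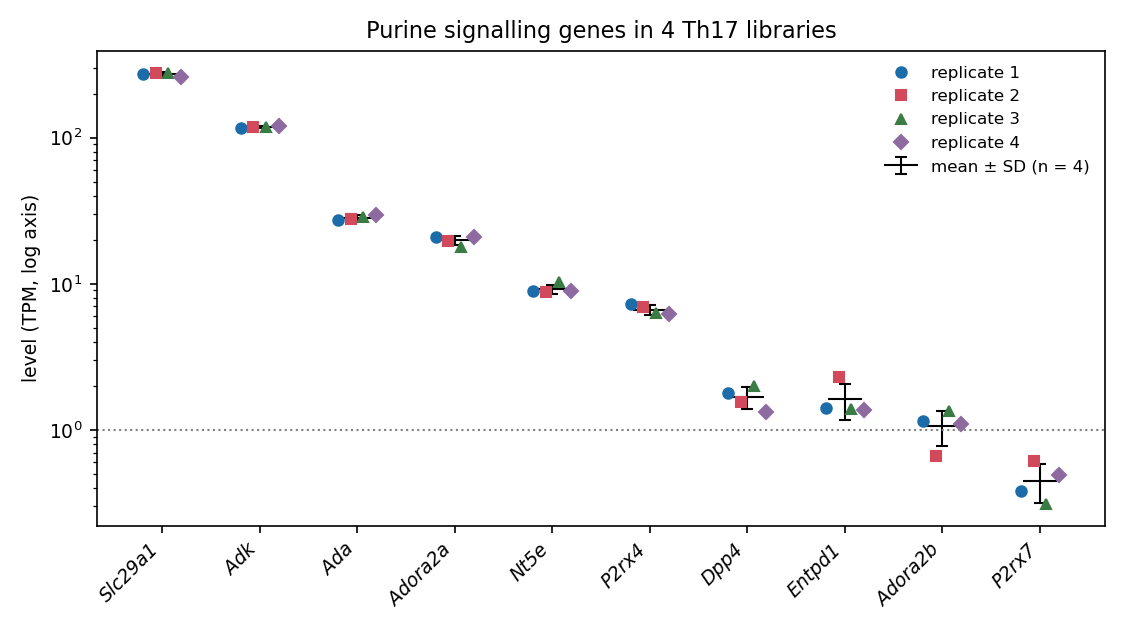
Level of each of the 10 purine signalling genes in TPM on a log axis, ordered by mean, with a point for each of the 4 libraries and a bar for the mean with its SD; the dotted line is 1 TPM. The points run from 262 to 278 TPM for Slc29a1 down to 0.312 to 0.617 TPM for P2rx7, and the single point of Entpd1 that stands above its other three is replicate 2, at 2.30 TPM.

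The promoters of 4 of these genes are shown first because their genes form pairs compared below: P2rx7 and P2rx4, which are neighbours on chromosome 5 and differ in level, and Dpp4 and Ada, which lie at the low and middle parts of the order. Each line gives the 250 bases before the most upstream annotated start, 5′ to 3′ on the strand of the gene, from RefSeq on GRCm38.p6 (mm10). Capitals mark CpG dinucleotides, the sites of DNA methylation in mammals.
P2rx7, chr5:122643677-122643926, plus strand: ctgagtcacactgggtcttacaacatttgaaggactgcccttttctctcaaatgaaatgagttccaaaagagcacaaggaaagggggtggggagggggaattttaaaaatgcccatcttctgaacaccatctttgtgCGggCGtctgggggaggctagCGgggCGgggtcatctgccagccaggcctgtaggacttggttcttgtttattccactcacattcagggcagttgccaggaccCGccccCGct
P2rx4, chr5:122707294-122707543, plus strand: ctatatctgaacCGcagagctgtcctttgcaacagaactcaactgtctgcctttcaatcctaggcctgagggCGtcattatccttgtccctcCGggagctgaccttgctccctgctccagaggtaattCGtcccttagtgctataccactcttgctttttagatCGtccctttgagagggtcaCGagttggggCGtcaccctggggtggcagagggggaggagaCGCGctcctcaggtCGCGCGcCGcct
Dpp4, chr2:62412232-62412481, minus strand: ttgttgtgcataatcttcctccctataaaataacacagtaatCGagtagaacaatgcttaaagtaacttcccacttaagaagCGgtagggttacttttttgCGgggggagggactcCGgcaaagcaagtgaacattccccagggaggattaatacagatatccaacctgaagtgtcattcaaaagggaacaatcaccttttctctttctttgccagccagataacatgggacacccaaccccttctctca
Ada, chr2:163750240-163750489, minus strand: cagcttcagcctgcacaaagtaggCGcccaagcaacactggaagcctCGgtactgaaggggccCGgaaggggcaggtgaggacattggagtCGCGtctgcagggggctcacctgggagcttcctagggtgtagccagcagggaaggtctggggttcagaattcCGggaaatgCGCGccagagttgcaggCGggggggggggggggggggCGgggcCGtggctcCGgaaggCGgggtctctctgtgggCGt

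The P2rx7 promoter held 6 CpG dinucleotides and that of P2rx4 held 13, while that of Dpp4 held 4 and that of Ada 14. RefSeq promoters were matched for 9 of the 10 genes (not for Adora2a), and 7 of these 9 had at least 10 CpG in this window, against 38.2% of the 27025 genes in the table, whose median was 6. The genes with the most CpG were Adora2b with 22, Nt5e with 21 and Entpd1 with 18, none of which exceeded 11 TPM in any library, whereas Slc29a1, the most abundant gene, had 10 at its most upstream start. Among these 9 genes a high CpG number was found at both low and high levels. Slc29a1 has 8 annotated starts in the table, whose windows held between 2 and 24 CpG, and gene counts do not say which start was used.

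The motif GGGCGG, the GC box bound by Sp1, occurred on one or other strand in 5 of the 9 windows (Ada, Adk, Adora2b, Nt5e and P2rx7), against 33% of all genes. The TATA-box letters TATAAA occurred in Dpp4 only among the 9, against 13% of all genes. TTCNNNGAA, the form of site bound by STAT factors, occurred in Ada only, against 7.14%, and TGACGTCA, the full cyclic AMP response element, in none of the 9, against 1.6%. The letters of none of the 4 motifs contain those of another. Only the most upstream start of each gene was counted. Slc29a1 had no GGGCGG there, but windows of several other annotated Slc29a1 starts held it. Adk, Entpd1 and P2rx7 also have a further annotated start. These are matches of letters and not measured binding sites.

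**Figure D2:**
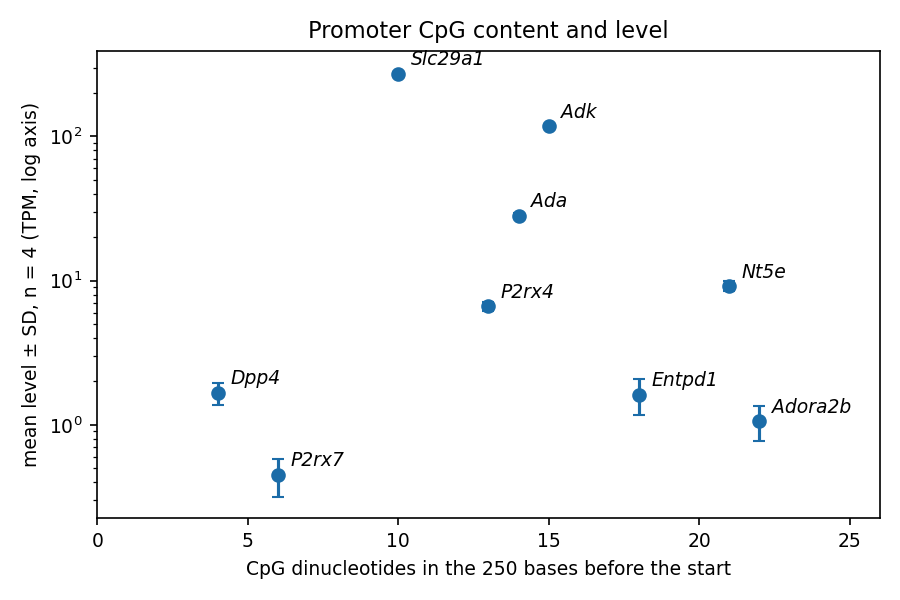
Mean level of 9 purine signalling genes with its SD (TPM, log axis, n = 4) against the number of CpG dinucleotides in the 250 bases before the most upstream start; each point is 1 gene. Dpp4 and P2rx7, with 4 and 6 CpG, are at 1.67 and 0.451 TPM, and Adora2b and Entpd1, with 22 and 18, are at 1.06 and 1.62 TPM.

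Between the surface enzymes CD39 and CD73, CD73 mRNA was the more abundant. Nt5e (ENSMUSG00000032420.8, chromosome 9, 88327197 to 88372092 in mm10, 9 exon blocks) was at 8.86, 8.74, 10.2 and 8.96 TPM in replicates 1 to 4, from 830, 551, 850 and 841 fragments, with replicate 3 the highest. Entpd1 (ENSMUSG00000048120.16, chromosome 19, 40612366 to 40741602, 17 exon blocks) was at 1.42, 2.30, 1.39 and 1.38 TPM, from 86, 94, 75 and 84 fragments. Replicates 1, 3 and 4 of Entpd1 lay close together, and replicate 2, which was the shallowest library and yet held the most Entpd1 fragments, lay above them. The 95% Poisson interval of replicate 2 ran from 1.86 to 2.81 TPM and that of replicate 1 from 1.13 to 1.75 TPM, and all such intervals cover counting error only. Nt5e exceeded Entpd1 in 4 of 4 libraries, by 1.97 ± 0.29 on the log2(TPM + 1) scale, with TPM ratios between 3.80 and 7.35 (exact two-sided sign-flip permutation p = 0.125, Benjamini-Hochberg adjusted 0.125, 6 pairs compared). With 4 libraries this test cannot give a lower p, and so none of the 6 pairs could pass 0.05. Differences on the log2(TPM + 1) scale are compressed for genes near or under 1 TPM. With the longest annotated transcript as gene length Nt5e was at 15.7 TPM in place of 9.20.

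Summed marker levels were set beside the high Entpd1 value of replicate 2, since regulatory T cells, B cells and myeloid cells are known to carry CD39. The regulatory T-cell regulator Foxp3 was at 10.3, 11.8, 8.42 and 9.17 TPM in replicates 1 to 4, and the 6 genes of that list summed to 3450, 3462, 3270 and 3404 TPM. None of the 6 was without a fragment, and Il2ra and Ctla4, which activated T cells also express, held most of the sum. The 6 B-cell markers summed to 0.893, 0.564, 0.280 and 0.728 TPM, with Ms4a1, Pax5 and Cr2 at 0 in every library. The 8 myeloid markers summed to 5.16, 4.03, 6.38 and 6.02 TPM, nearly all of it Cd68, with Lyz2 and C1qa at 0. The neutrophil and mast cell list summed to between 1.94 and 3.37 TPM with 3 of 6 markers at 0, the CD8 and natural killer list to between 6.58 and 9.06 TPM with 2 of 6 at 0, the endothelial and stromal list to between 4.21 and 5.93 TPM with 2 of 7 at 0, and the erythroid and platelet list to between 0.665 and 0.938 TPM with 4 of 6 at 0. The other genes of the regulatory T-cell list did not share 1 order over the libraries. Lrrc32 was at 0.823, 1.14, 0.772 and 0.704 TPM in replicates 1 to 4, Ikzf2 at 2.49, 2.44, 1.84 and 2.38 TPM, and Tnfrsf18 at 133, 124, 143 and 132 TPM. In the same order Il2ra was at 1198.75, 1199.1, 1180.36 and 1177.88 TPM, and Ctla4 at 2104, 2124, 1936 and 2082 TPM. Replicate 2 was thus the highest for Foxp3, a gene of the X chromosome, for Lrrc32, for Ctla4 and, by a small margin, for Il2ra. It was not the highest for Ikzf2, and was the lowest for Tnfrsf18 and for the myeloid sum. The part of these cells in the Entpd1 value was not tested.

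Among 10 other surface enzymes of nucleotide breakdown that were matched, 3 reached 1 TPM in every library, against 44.8% of all protein-coding genes. Alpl, the tissue-nonspecific alkaline phosphatase, which can release phosphate from many substrates including AMP, was at 26.8 ± 0.964 TPM, above the range of Nt5e in every library. Acp3 (listed as Acpp in the annotation), an acid phosphatase that can also cut AMP, was at 6.59 ± 0.609 TPM. Art2b, which in mouse T cells uses NAD to modify surface proteins and can open P2X7, was at 1.89 ± 0.0927 TPM. The ATP-cutting relatives Entpd2, Entpd3 and Entpd8 were not at that level. Entpd3 was at 0.440 ± 0.279 TPM, Entpd2 had 3 fragments in all, and Entpd8 had none, which allows up to 0.151 TPM by the floor of 3 fragments in the shallowest library. The lowest gene with a fragment was Enpp3, at 0.0219 TPM and under its floor of 0.0680 TPM. Entpd6, which encodes an NTPDase of the secretory pathway, was at 42.0 ± 0.716 TPM, while Entpd4 had 1 fragment and has a near-identical annotated copy, Entpd4b, so its value is uncertain.

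Adenosine receptor mRNA was nearly all Adora2a. This gene (ENSMUSG00000020178.6, chromosome 10, 75316877 to 75334784, 5 exon blocks) was at 20.8, 19.7, 17.7 and 20.9 TPM in replicates 1 to 4, with replicate 3 the lowest. Adora2b, which encodes a receptor of lower affinity for adenosine (ENSMUSG00000018500.2, chromosome 11, 62248984 to 62266453, 2 exon blocks), was at 1.15, 0.666, 1.35 and 1.09 TPM, from 23, 9, 24 and 22 fragments. The groups of values did not overlap, and Adora2a was higher in 4 of 4 libraries. The difference was 3.34 ± 0.26 on the log2(TPM + 1) scale, and TPM ratios lay between 13.2 and 29.7 (exact two-sided sign-flip permutation p = 0.125, adjusted 0.125). The highest of these ratios was that of replicate 2, in which Adora2b rested on 9 fragments and its Poisson interval ran from 0.304 to 1.26 TPM. Of the remaining adenosine receptor genes, Adora3 had 3 fragments and Adora1 had 1 over the 4 libraries, both under their floors of 0.110 and 0.0708 TPM.

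Genes of the cyclic AMP pathway that the Adora2a receptor drives were present with it. Of 18 such genes, chosen by name, 17 reached 1 TPM in every library, against 44.8% of all protein-coding genes. The highest was Prkar1a, a regulatory subunit of protein kinase A, at 402 ± 10.3 TPM, and the lowest was the adenylyl cyclase gene Adcy9 at 0.572 ± 0.107 TPM. Gnas, which encodes the stimulatory G protein these receptors couple to, was at 129 ± 2.08 TPM (chosen after its values were seen).

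The 4 genes Slc29a1, Adk, Ada and Dpp4 summed to between 412 and 427 TPM, and Entpd1 and Nt5e to between 10.3 and 11.6 TPM. Slc29a1, which encodes the equilibrative nucleoside transporter ENT1 (ENSMUSG00000023942.15, chromosome 17, 45585200 to 45599606, 16 exon blocks), was at 274, 275, 278 and 262 TPM in replicates 1 to 4, with replicate 4 the lowest. It ranked 617 among the 21764 protein-coding genes. Slc29a2, the gene of the related transporter ENT2, was at 57.7, 51.6, 52.6 and 55.5 TPM. With the longest transcript as gene length Slc29a1 minus Slc29a2 was 3.23 on the log2(TPM + 1) scale. With the exon length, Slc29a1 was higher in 4 of 4 libraries with no overlap, by 2.30 ± 0.10 on that scale and with TPM ratios between 4.71 and 5.34 (exact two-sided sign-flip permutation p = 0.125, adjusted 0.125). Of the 6 other nucleoside transporter genes, 3 reached 1 TPM in every library, against 44.8% of all protein-coding genes. These were Slc29a2, the lysosomal transporter gene Slc29a3 at 22.6 ± 0.493 TPM and the sodium-coupled purine nucleoside transporter gene Slc28a2 at 9.65 ± 0.516 TPM. The lowest with a fragment was Slc28a1, with 3 fragments.

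The protein-coding genes whose levels lay closest to those of Slc29a1 in all 4 libraries were Mtpn, Dhx15 and Acsl4. The root mean square difference of log2(TPM + 1) was 0.0180, 0.0273 and 0.0296 for these, over 4 libraries. This is likeness of level within 1 group and not of response to anything.

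Of the enzymes that use adenosine inside the cell, the kinase had the more abundant mRNA. Ada (ENSMUSG00000017697.3, chromosome 2, 163726584 to 163750239, 12 exon blocks) was at 27.2, 27.6, 28.7 and 29.7 TPM in replicates 1 to 4. Adk (ENSMUSG00000039197.9, chromosome 14, 21052574 to 21448568, 11 exon blocks) was at 117, 118, 118 and 119 TPM in the same order, with every library of Adk above every library of Ada. Ada minus Adk was -2.02 ± 0.04 on the log2(TPM + 1) scale, negative in 4 of 4 libraries, with Ada between 0.234 and 0.248 of Adk in TPM (exact two-sided sign-flip permutation p = 0.125, adjusted 0.125). The size of this difference depends on the exon length of Adk. The counting annotation gave Adk 1781 exon bases, whereas its longest transcript in a later release has 4243. With the longest transcript as the length of every gene Adk was at 39.1 TPM and Ada at 26.5, and the difference was -0.54. Fragments from exon sequence absent from the counting annotation were not counted, while its bases entered that length.

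Other genes of purine conversion inside the cell were mostly abundant. Of 19 matched, 13 reached 1 TPM in every library, against 44.8% of all protein-coding genes, and 12 reached 10 TPM. The highest was Hprt, which salvages hypoxanthine and guanine, at 521 ± 7.17 TPM, and the lowest with a fragment was Xdh, the xanthine-oxidising enzyme, at 0.0940 ± 0.0771 TPM. Aprt, which salvages adenine, was at 402 ± 15.2 TPM and Ahcy, which releases adenosine from S-adenosylhomocysteine, at 125 ± 7.18 TPM, both chosen after their values were seen. Of the listed symbols, Pnp and Art2a were not analysed here.

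Dpp4, whose product CD26 anchors adenosine deaminase in human cells, was low. These are mouse cells, in which such anchoring was not measured. Dpp4 (ENSMUSG00000035000.8, chromosome 2, 62330073 to 62412231, 28 exon blocks) was at 1.79, 1.55, 2.00 and 1.33 TPM in replicates 1 to 4, from 123, 72, 122 and 92 fragments. Replicate 3 was the highest and replicate 4 the lowest. Dpp4 was below Ada in 4 of 4 libraries without overlap, and Dpp4 minus Ada was -3.46 ± 0.19 on the log2(TPM + 1) scale, with Dpp4 between 0.0450 and 0.0696 of Ada in TPM (exact two-sided sign-flip permutation p = 0.125, adjusted 0.125). Of 6 other genes of dipeptidyl and prolyl peptidases, 5 reached 1 TPM in every library, against 44.8% of all protein-coding genes. The highest was Dpp3, a zinc metallopeptidase that shares the name but not the family of Dpp4, at 185 ± 3.41 TPM. Dpp9, a cytosolic serine peptidase related to Dpp4, was at 117 ± 0.976 TPM, and the others were Prep, Dpp8 and Dpp7. Fap, the closest relative of Dpp4, had 2 fragments in all.

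Among ATP-gated channels P2rx4 was the only one of the 7 P2X genes at 1 TPM in every library. P2rx4, which encodes a channel with high sensitivity to ATP (ENSMUSG00000029470.15, chromosome 5, 122707544 to 122729738, 11 exon blocks), was at 7.24, 6.90, 6.29 and 6.18 TPM in replicates 1 to 4. P2rx7, which encodes the channel that needs high ATP and can lead to membrane pores and cell death (ENSMUSG00000029468.17, chromosome 5, 122643911 to 122691432, 17 exon blocks), was at 0.385, 0.617, 0.312 and 0.491 TPM, from 25, 27, 18 and 32 fragments. All 4 values of P2rx7 were under 1 TPM and above its floor of 0.0686 TPM. The genes lie on the same strand, 16111 bases apart, with 1 annotated gene, Gm10064, wholly between them. P2rx7 minus P2rx4 was -2.40 ± 0.15 on the log2(TPM + 1) scale, negative in 4 of 4 libraries, and P2rx4 was between 11.2 and 20.2 times P2rx7 in TPM (exact two-sided sign-flip permutation p = 0.125, adjusted 0.125). With a pseudocount of 0.1 in place of 1 the difference was -3.64. The P2rx7 and P2rx4 promoters are those printed first above. Of the 5 other P2X genes, the highest was P2rx2 at 0.693 ± 0.241 TPM and the lowest P2rx6 with 1 fragment. In the microRNA gene Mir8115, 119 bases lie in P2rx7 exons on the same strand, which is 1.99% of them, and fragments there would be left out by the default of the counting program.

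P2Y receptors are a family of G protein-coupled receptors mostly for nucleotides. Of 8 genes named as such, 2 reached 1 TPM in every library, against 44.8% of all protein-coding genes. P2ry2, a receptor for ATP and UTP, was at 6.98 ± 0.167 TPM. P2ry10, whose product is known as a receptor for lysophosphatidylserine rather than for nucleotides, was at 3.69 ± 0.424 TPM. The lowest with a fragment was P2ry14, with 6 fragments. P2ry2 lay within the range of P2rx4. For the release of ATP, 5 of 7 listed genes reached 1 TPM in every library, against 44.8% of all protein-coding genes. Vdac1, a channel known mainly from mitochondria, was the highest at 381 ± 10.6 TPM and Gja1 the lowest with a fragment at 3.57 ± 0.307 TPM. Slc17a9, the vesicular nucleotide transporter gene, was at 43.8 ± 3.47 TPM and Panx1, a plasma membrane channel through which T cells release ATP, at 18.8 ± 1.06 TPM.

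Genes that act after P2X7 were uneven. Of 8 listed, 5 reached 1 TPM in every library, against 44.8% of all protein-coding genes. The sheddase gene Adam10 led them at 101 ± 2.03 TPM. The inflammasome sensor gene Nlrp3 and the cytokine gene Il1b had no fragment, which allows up to 0.101 and 0.215 TPM in the shallowest library. Casp1 was the lowest with a fragment, at 0.547 ± 0.273 TPM.

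Genes known to act on the transcription of the surface enzymes, or on its induction by cytokines, were all detected. Of 9 such genes, chosen by name, 9 reached 1 TPM in every library, against 44.8% of all protein-coding genes. They ran from Hif1a at 564 ± 22.7 TPM to Foxp3 at 9.92 ± 1.47 TPM. Gfi1, a repressor reported to lower both surface enzymes in mouse Th17 cells, was at 59.7 ± 4.77 TPM, and Stat3, which interleukin-6 activates, at 226 ± 6.62 TPM (both chosen after their values were seen). With 1 group, no relation between these levels and those of Entpd1 and Nt5e could be tested.

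**Figure D3:**
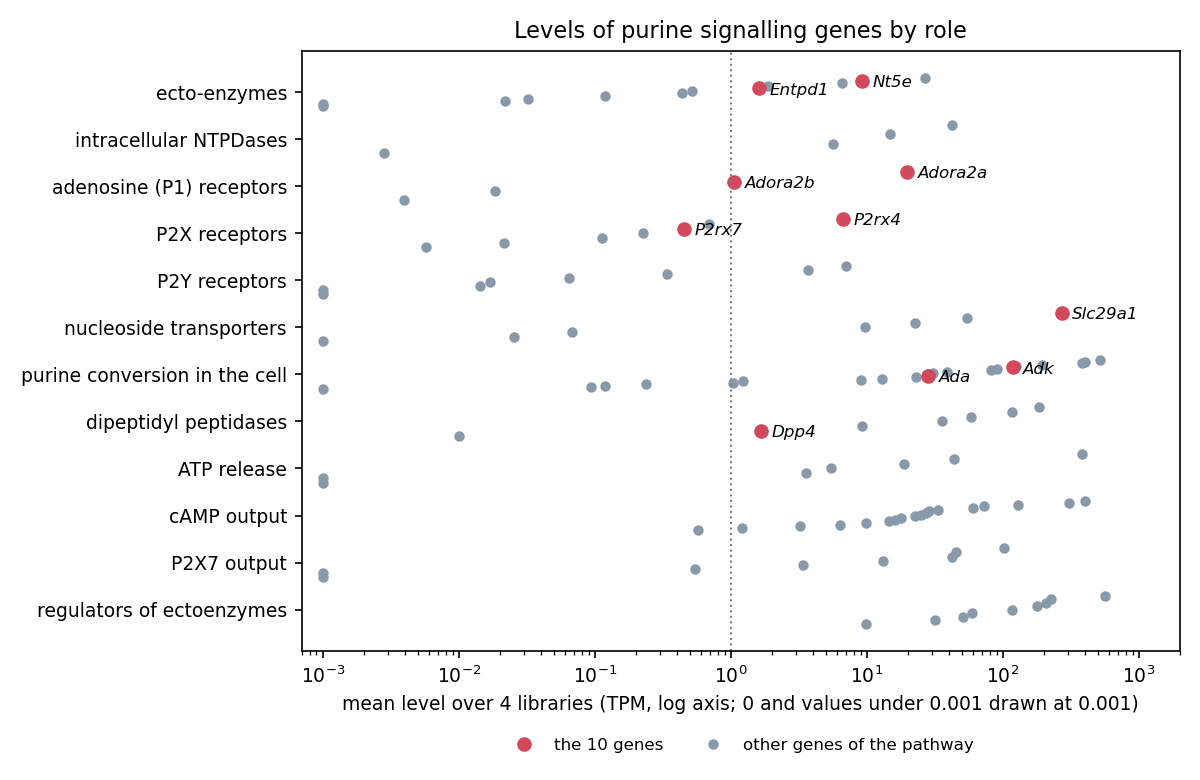
Mean level in TPM (log axis, genes with no fragment drawn at the left edge) of the 10 genes in red and of the other matched pathway genes in grey, 1 row per role; the dotted line is 1 TPM. Adora2a stands apart from the other adenosine receptor genes at 19.8 TPM, Slc29a1 is the rightmost transporter at 272 TPM, and Entpd1 and Nt5e lie to the left of Alpl at 26.8 TPM.

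**Figure D4:**
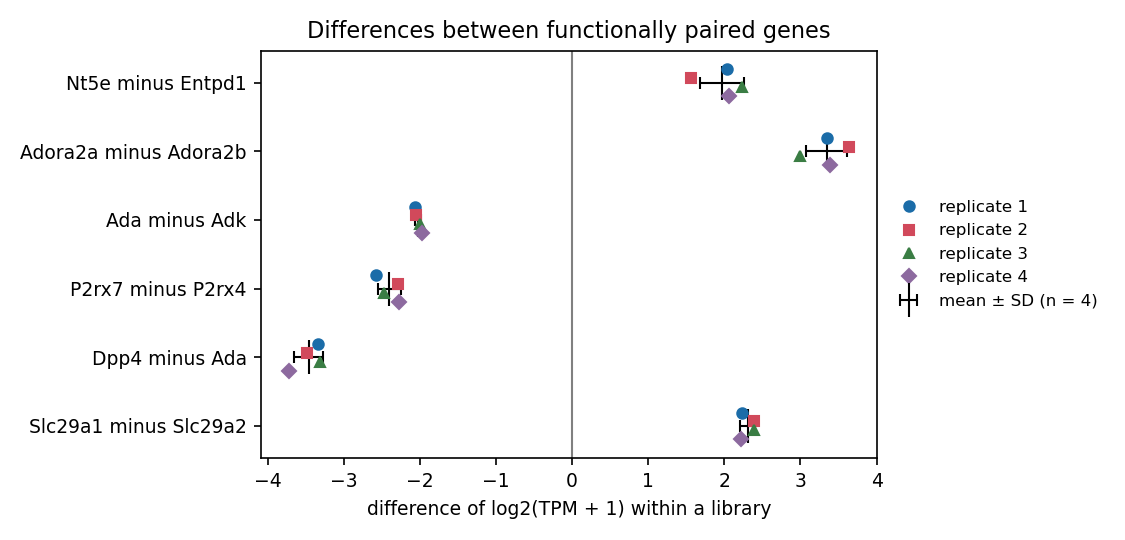
Difference of log2(TPM + 1) between the members of each of the 6 pairs, the gene named first minus the other, with a point per library and a bar for the mean with its SD. All 4 points of each pair lie on the same side of 0, from a mean of 3.34 for Adora2a minus Adora2b to -3.46 for Dpp4 minus Ada.

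Over the 102 other pathway genes matched, 65 reached 1 TPM in every library, or 63.7%, against 44.8% of all protein-coding genes. Of the 102, 10 had no fragment. Their median level was 9.72 TPM. These lists were chosen by name, so the share and the median are a description, as are the counts of each list above.

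None of the 10 genes was called variable between the libraries. The test was an edgeR quasi-likelihood fit over 11847 genes (one-sided, adjusted p under 0.05), in which all 10 were tested and 0 were called, against 0.304% of all genes tested (36 genes). At an unadjusted p under 0.05 the count was also 0 of 10, against 5.69% of all genes tested, and with limma-trend 0 of 10 were called. The lowest unadjusted p was that of Entpd1, at 0.0643 (adjusted 0.926), followed by Nt5e at 0.177 (adjusted 0.993). The unadjusted p of Entpd1 was under 0.05 in 5 of 10 settings run and was 0.998 without replicate 2 (edgeR). A single library stood apart from the other three, with a gap that took up most of the range, in 2 of the 10 genes (Entpd1 and Nt5e), against 4.76% of the genes tested. Of 70 other pathway genes tested, 0 were called and 7 had an unadjusted p under 0.05, a threshold passed by 5.69% of all genes.

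The coefficient of variation (CV, SD over mean) of TPM was larger in the genes with few fragments. It was 29.5% for P2rx7, 26.9% for Adora2b and 27.9% for Entpd1, and 2.70% for Slc29a1 and 1.04% for Adk. Counting alone would give 20.2% for P2rx7 and 24.6% for Adora2b, 10.9% for Entpd1, 0.984% for Slc29a1 and 2.25% for Adk. In 8 of the 10 genes the CV was above that of counting, and the exceptions were Adk and Ada. The same share over all genes was not computed, and no pair of libraries agreed within sampling noise. Of tested genes of similar mean level, 87.6% had a lower CV than Entpd1 and 3.23% a lower CV than Adk. For the remaining members this share lay between 39.3% (P2rx4) and 78.6% (Adora2b). For Adora2b, with 78 fragments over the 4 libraries, and P2rx7, with 102, a difference between libraries of the size of the counting error was not detectable at this depth.

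**Figure D5:**
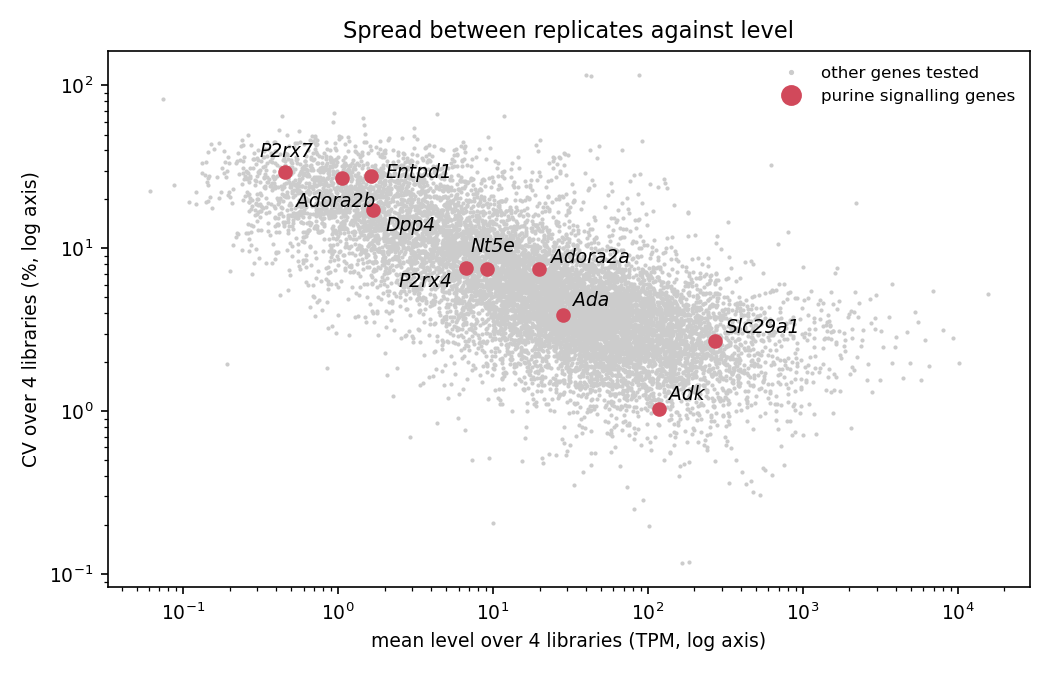
Coefficient of variation of TPM over the 4 libraries (%, log axis) against mean level (TPM, log axis) for each of the 11847 genes tested, with the 10 purine signalling genes in red. The red points lie within the cloud of grey ones, from 29.5% for P2rx7 at 0.451 TPM to 1.04% for Adk at 118 TPM.

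Little of these genes' sequence is shared with other genes. The share of their 50-base words that also occurs in an annotated transcript of another gene, on either strand, was highest for Slc29a1 at 3.93%, Dpp4 at 2.92% and P2rx4 at 1.63%, and was 0 for Entpd1, Adora2a, Adora2b and Ada. Exons of Slc29a1 and Dpp4 overlap opposite-strand genes (Gm17080 over 275 bases and Gm13561 over 232 bases), which the stranded counting tells apart.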

How the data were processed

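RNA of primary mouse Th17 cells was measured in 4 libraries. Raw fragment counts by gene were deposited by the authors, who made them, per the file headers, with featureCounts 1.4.6-p4 (paired ends, both ends aligned, strand option 2, exons summed per gene, GENCODE vM13), and per the labels on mm10. The options for fragments that align to several places or overlap several genes are not in those headers, and by default both are left out. No version of the aligner is stated in the labels or headers. The assay is labelled total RNA-seq, but the linked library protocol is one for polyadenylated RNA.

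TPM was computed here from count over the deposited exon length of all isoforms together. Symbols came from GENCODE M21 (50376 of 50600 identifiers matched, version ignored). The 10 genes, lists and pairs were chosen by name with earlier results of these data known. Text names all 10 genes, each pathway list's highest gene and lowest gene with a fragment, genes of a pair, and the 3 genes nearest in level to the most abundant one. Some, not all, of the genes behind counts of 5 or fewer are also named. Variability between replicates used edgeR 4.0.16 in R 4.3.3 (TMM, filterByExpr, intercept-only quasi-likelihood fit, robust prior with 24.8 degrees of freedom, older deviance estimate, upper tail of F), with Benjamini-Hochberg adjustment over all genes, and was tested on simulated data. TMM factors lay between 0.995 and 1.003. Pairs used an exact sign-flip test on log2(TPM + 1). A floor of 3 fragments was used for genes near 0. Alternatives used limma 3.58.1 and DESeq2 1.42.0 size factors, other filters, lengths, denominators, thresholds and each replicate left out. All else was computed in Python 3.11.15 (scipy 1.17.1).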

Additional observations from a re-analysis of the deposited data

Results flagged for a closer look

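In 2 of the 10 genes, 1 library stood apart from the other three, by a gap to the nearest library that took up more of the whole range than Dixon's 95% critical value allows. Over the 11847 genes tested for variability, 4.76% had such a gap, and chance flags about 1 in 20 groups of 4.

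Entpd1 had a gap of 0.961 of its range. Replicate 2 was at 2.30 TPM, against 1.38 to 1.42 TPM in the other three, a ratio to their mean of 1.65. Its variability test had an unadjusted p of 0.0643 and an adjusted p of 0.926 (edgeR). Nt5e had a gap of 0.85 of its range, with replicate 3 at 10.2 TPM, against 8.85 ± 0.111 TPM (SD, n = 3) over the others, a ratio of 1.15.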

How the results depend on the processing

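No paired analysis was possible because there was 1 group. Every one of the 6 pairs kept its direction under every alternative run. P2rx7 minus P2rx4 was -3.64 with a pseudocount of 0.1. Leaving out 1 replicate gave 1.89 to 2.11 for Nt5e minus Entpd1, 3.24 to 3.46 for Adora2a minus Adora2b, -2.04 to -2.01 for Ada minus Adk, -2.44 to -2.34 for P2rx7 minus P2rx4, -3.51 to -3.38 for Dpp4 minus Ada and 2.27 to 2.33 for Slc29a1 minus Slc29a2. With 3 libraries no such p can go below 0.25. The median level of the 10 genes was 7.92 TPM as reported, 9.47 without mitochondrial and ribosomal protein genes in the denominator, 12.6 with the longest transcript as gene length, and 7.81 to 8.04 with a replicate left out. The longest transcript made Adk 39.1, Nt5e 15.7 and Slc29a1 389 TPM. Entpd1 and Dpp4 changed places in the order under that length and without replicate 1 or 3. The number of variable genes, 36, was 94 with no filter beyond 1 fragment, 17 with a prior without robust estimation, and 15 to 37 with a replicate left out, the lowest of these without replicate 4. None of the 10 genes was called under any alternative that tested it. The unadjusted p of Entpd1 lay between 0.0288 and 0.998 over 10 settings, the highest of them without replicate 2 (edgeR), while its adjusted p was at least 0.759 in all of them. Of the 10 genes, 4 reached 10 TPM in every library and 9 reached 0.5 TPM, and 8 or 9 reached 1 TPM with a replicate left out. Depth limits Adora2b and P2rx7 most, with as few as 9 and 18 fragments in a library.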
